A study of Mus musculus with 4 samples.

Results

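Splicing factors and RNA helicases were taken as 7 gene families by name: the heterogeneous nuclear ribonucleoprotein genes (Hnrnp), the serine- and arginine-rich splicing factors (Srsf), the helicases of the DEAD-box (Ddx) and DEAH-box (Dhx) groups, the Sm and other small nuclear ribonucleoprotein genes (Snrp), the Sm-like genes (Lsm) and the subunits of splicing factor 3 (Sf3a and Sf3b). A probe belonged to a family if its only gene symbol on the platform began with that name. The families held 95 of the 13410 genes on the platform, measured by 108 probes, and 66 of the 95 had a value on at least 3 of 4 arrays and were tested. The lungs came from 4 bleomycin-treated A/J mice, and the amplified lung RNA of each was set on its own 2-colour array against amplified RNA pooled from control A/J lungs. Bleomycin is a DNA-damaging drug used to injure the lung, and A/J is an inbred mouse strain. The labels name the same pool on all 4 arrays, and it counts as 1 control sample, so the spread between control mice is not part of any test. The sources used here give no age, sex, dose, route or time.

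Splicing removes introns from RNA precursors in the spliceosome, a machine built from small nuclear RNAs and their proteins. Sm proteins form a ring around most of these RNAs, and Sm-like proteins form a ring around the U6 RNA or, in another combination, take part in mRNA decay in the cytoplasm. Srsf proteins bind exons and commonly favour their inclusion, Hnrnp proteins coat the transcript and often oppose it, and the splicing factor 3 complexes help the U2 particle to hold the branch point. DEAD-box and DEAH-box proteins use ATP to unwind or remodel RNA, in splicing, export, ribosome assembly, translation and antiviral sensing.

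Each value is a log ratio between a treated mouse and the pool, with array medians set to 0. The base of the logarithm was taken as 2 and is not stated. By the order of the titles the treated mouse would be on top, but no source used here gives the dyes or the direction, so genes are described as above or below 0. With the pool on top instead, each sign in this text would turn, while sizes and p would stay. The arrays had 9427 to 12136 spots with a value, and their number limits the precision. Arrays of mice 1 and 2 (r = 0.73 over spots) and of mice 3 and 4 (r = 0.86) were more alike than the other pairs (r = 0.45 to 0.57), for a reason the labels do not give. Of 10 markers of lung epithelium, 8 were on the platform and 7 were tested, among them the surfactant genes Sftpa1, Sftpc and Sftpd, although a ratio does not give their level. In whole-lung RNA, fewer cells of a type and less RNA per cell cannot be told apart.

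Of the 66 tested genes, 12 passed the test (limma, mean against 0, Benjamini-Hochberg adjusted p at most 0.05 over all 8384 genes tested), 9 above 0 and 3 below. Above 0 were Hnrnph2, Hnrnpf, Hnrnpk, Ddx17, Ddx5, Ddx50, Ddx3x, Srsf5 and Lsm14a, and below it Lsm6, Snrpg and Srsf9. Thus 18.2% of the tested members passed, beside 12.5% of all genes tested. Above 0 the share was 13.6% of members, beside 7.69% of all genes, and below 0 it was 4.54% beside 4.81%. At an unadjusted p under 0.05 there were 28 members, and 31.8% of all genes reached it. Without mouse 1, 2, 3 or 4 the members past the test were 7, 9, 7 and 8, of which 1, 1, 1 and 2 lay below 0, while the share of all genes was 3.78%, 6.83%, 3.53% and 3.97%. With mice 1 and 2, and mice 3 and 4, as a random block, 8 members passed, 1 of them below 0, and 4.79% of all genes. The median of the members' mean log ratios was 0.03, with 0.04, 0.03, 0.06 and 0.08 in mice 1 to 4, beside 0.00 over all genes. The calls above 0 were in the Hnrnp (3), Ddx (4), Srsf (1) and Lsm (1) families, and those below 0 in the Srsf, Snrp and Lsm families (1 each). The Dhx and Sf3 families had 0 genes past the test on either side, with 3 and 2 genes at an unadjusted limma p under 0.05.

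**Figure D1:**
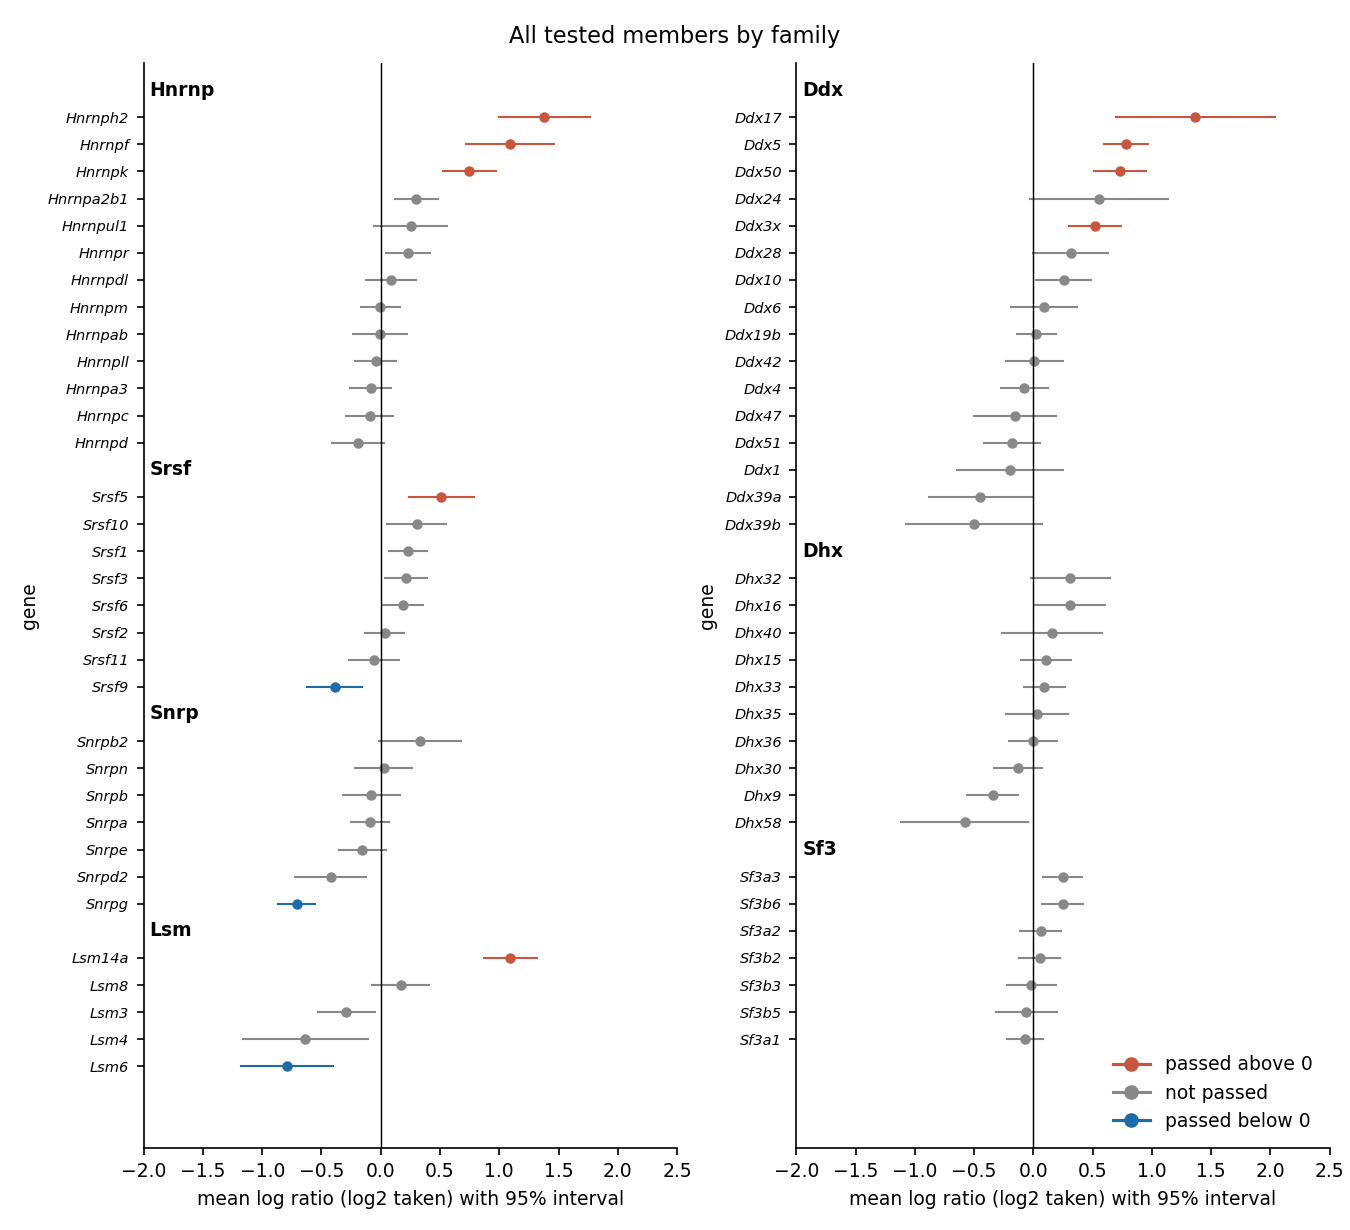
Mean log ratio of each of the 66 tested genes (x axis, log2 taken) with its 95% interval from limma, grouped by family and ordered by the mean. The 9 genes that passed above 0 are red, the 3 that passed below 0 are blue and the other genes are grey; the Sf3 means all lie between -0.07 and 0.25.

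Some of the sequence ahead of these genes is shown first, for the farthest gene above 0 (Hnrnph2), a helicase above 0 (Ddx50) and the gene below 0 that passed whichever mouse was left out (Snrpg). Each run is the 250 bases before the first transcript start that RefSeq lists for the gene, 5′ to 3′ on the gene's strand, in the build GRCm38.p6, at chrX:134600929-134601178 (plus strand), chr10:62651219-62651468 (minus strand) and chr6:86371290-86371539 (plus strand). Capitals mark the motifs found on either strand out of the 6 named in the next paragraph.
Hnrnph2: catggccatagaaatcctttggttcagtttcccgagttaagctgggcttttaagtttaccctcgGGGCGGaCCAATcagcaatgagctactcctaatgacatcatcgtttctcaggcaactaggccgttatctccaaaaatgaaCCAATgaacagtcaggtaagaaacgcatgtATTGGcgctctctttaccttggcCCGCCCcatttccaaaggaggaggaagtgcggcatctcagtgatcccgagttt
Ddx50: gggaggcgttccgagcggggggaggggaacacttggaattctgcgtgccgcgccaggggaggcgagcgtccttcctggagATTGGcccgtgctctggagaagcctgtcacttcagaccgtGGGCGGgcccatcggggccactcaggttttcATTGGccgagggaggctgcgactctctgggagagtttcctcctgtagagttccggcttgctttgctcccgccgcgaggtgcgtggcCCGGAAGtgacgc
Snrpg: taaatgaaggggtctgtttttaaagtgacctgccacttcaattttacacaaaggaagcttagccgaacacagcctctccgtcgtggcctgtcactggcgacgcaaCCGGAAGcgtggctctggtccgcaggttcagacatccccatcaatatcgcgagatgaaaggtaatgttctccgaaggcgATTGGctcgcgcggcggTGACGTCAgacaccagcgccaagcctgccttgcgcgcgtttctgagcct

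In these windows 6 common promoter motifs were searched on both strands. RefSeq promoters were matched for 59 of the 66 tested genes. The ETS motif (CCGGAAG) was in 37.3% of those 59 windows, beside 12% of the windows of all tested genes that were matched (6671) and 7.05% of all 27025 windows. The GC box, searched as GGGCGG, was in 62.7% of the members' windows, beside 53.8% for tested genes and 32.9% for all. The CCAAT box was in 44.1%, beside 36.6% and 34.5%. The TATA box (TATAAA) was in 8.47%, beside 8.39% and 13%. The E-box, searched as CACGTG, was in 11.9%, beside 8.05% and 6.05%, and the palindromic cAMP response element (TGACGTCA) in 6.78%, beside 2.61% and 1.62%. No motif in the list contains another. In the printed windows, Hnrnph2 has 2 GC boxes and 3 CCAAT boxes, Ddx50 has 1 GC box, 2 CCAAT boxes and 1 ETS motif, and Snrpg has 1 CCAAT box, 1 ETS motif and 1 cAMP response element. Windows not printed can hold fewer: Lsm14a and Lsm6 have none of the 6 motifs, Ddx5 has 1 CCAAT box and Hnrnpk 2. Among the 12 genes past the test, the ETS motif was in 4 of 9 above 0 and 1 of 3 below, or 41.7%, beside 37.3% of the members. The GC box was in 50% of the 12, the CCAAT box in 41.7% and the cAMP response element in 8.33%. The TATA box and the E-box were in 0 of the 12. The median GC content of the windows was 60.8% for the members, 58.4% for all tested genes and 52% for the whole table.

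The Hnrnp family had 13 tested genes, of which 3 passed above 0 (23.1%, beside 7.69% of all genes) and 0 below (beside 4.81%). The means of 6 of the 13 were below 0. The members that passed bind particular sequences in the transcript. Hnrnph2 and Hnrnpf are close relatives that bind runs of G, and Hnrnpk binds runs of C. Hnrnph2 had log ratios of 1.62, 0.78, 1.55 and 1.57 in mice 1 to 4. Its mean of 1.38 ± 0.40 (SD, n = 4; limma adjusted p = 0.0104), a 2.60-fold difference, was the largest of all members, and mouse 2 lay apart from the other mice. Hnrnpf had 0.68, 0.84, 1.48 and 1.36, with a mean of 1.09 ± 0.39 (SD, n = 4; limma adjusted p = 0.0153). Mice 3 and 4 were the high ones for Hnrnpf, whereas Hnrnph2 was as high in mouse 1, so the relatives did not share the same order of mice. Hnrnpf did not pass without mouse 4 (limma adjusted p = 0.0542). Their closest relative on the platform, Hnrnph1, had no value on any array, and signal shared between related transcripts was not tested. Hnrnpk had 0.91, 0.58, 0.58 and 0.91, with a mean of 0.75 ± 0.19 (SD, n = 4; limma adjusted p = 0.0121) and with mice 1 and 4 above mice 2 and 3.

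The other 10 tested Hnrnp genes did not pass, and their means lay between -0.19 for Hnrnpd, a regulator of mRNA decay, and 0.30 for Hnrnpa2b1. Hnrnpa2b1, a core protein of the particle, was above 0 in each mouse at 0.44, 0.14, 0.31 and 0.31, and just missed the threshold (limma adjusted p = 0.0526). With arrays left uncentred, or with only genes measured on 4 arrays, it passed (limma adjusted p = 0.0464 and 0.048). Under the other alternatives it did not (limma adjusted p 0.0513 to 0.154, with 0.117 for mouse pairs as a random block). Hnrnpc, another core protein, had 0.03, 0.03, -0.28 and -0.15, a mean of -0.09 with a 95% interval of -0.29 to 0.11. Hnrnpm, which takes part in the choice of splice sites, had the mean nearest 0 of the family, 0.00, with an interval of -0.17 to 0.16. The core gene Hnrnpa1 had values in mice 1 and 2 only, -0.04 and -0.01, and Hnrnpl in mouse 2 only, 0.13. Hnrnpa0, Hnrnph1 and Hnrnpu had no value.

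Of 8 tested Srsf genes, Srsf5 passed above 0 and Srsf9 below it (12.5% each, beside 7.69% and 4.81% of all genes). Srsf5, a splicing factor that binds exonic enhancers, had 0.83, 0.21, 0.43 and 0.58. Its mean was 0.51 ± 0.26 (SD, n = 4; limma adjusted p = 0.0406), highest in mouse 1 and lowest in mouse 2. Srsf9, a small member of the family with a short arginine- and serine-rich tail, had -0.58, -0.52, -0.32 and -0.14. Its mean was -0.39 ± 0.20 (SD, n = 4; limma adjusted p = 0.0493), so it lay below 0 in every mouse. Both calls were close to the threshold: Srsf5 was lost without mouse 1, 3 or 4 (limma adjusted p up to 0.122) and Srsf9 whichever mouse was left out (limma adjusted p 0.0667 to 0.14). Both were also lost with mouse pairs as a random block (limma adjusted p = 0.0963 and 0.0873).

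Between these lay Srsf10 at 0.30, Srsf1 at 0.23, Srsf3 at 0.21 and Srsf6 at 0.19, whose values were above 0 in every mouse. None of these 4 passed over all genes (limma adjusted p 0.0726 to 0.127). Srsf1, the best known general splicing factor of the family, had 0.19, 0.34, 0.17 and 0.23 and a 95% interval of 0.07 to 0.39. Srsf3, the smallest member and one that also promotes mRNA export, had 0.28, 0.05, 0.25 and 0.28, with mouse 2 apart. Srsf2, which binds exons through a broad range of motifs, had a mean of 0.03 with an interval of -0.13 to 0.20. Its 2 probes lay on either side of 0, at -0.09 and 0.16. Values on all arrays lay on the same side of 0 for 6 of the 8 genes, beside 46.7% of all genes. Of these, 5 were above 0, beside 24.3% of all genes. The family median was 0.20, with 0.22, 0.05, 0.21 and 0.20 in mice 1 to 4.

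Of 16 tested Ddx genes, 4 passed above 0 (25%, beside 7.69% of all genes) and 0 below (beside 4.81%). The means of 6 of the 16 were below 0. Ddx5 and Ddx17 are close relatives that act in splicing, microRNA processing and as partners of transcription factors. Ddx5 had 0.68, 0.71, 0.97 and 0.77, with a mean of 0.78 ± 0.13 (SD, n = 4; limma adjusted p = 0.00747), and its 4 values lay close together. Ddx17 had 0.82, 0.64, 2.08 and 1.92, with a mean of 1.37 ± 0.74 (SD, n = 4; limma adjusted p = 0.0333). In mice 3 and 4 its log ratio was more than 1 above that in mice 1 and 2, and it was lost without mouse 1, 3 or 4 (limma adjusted p 0.0623 to 0.0986). Signal shared between these relatives was not tested. Ddx50, a nucleolar helicase related to Ddx21, had 0.77, 0.52, 0.96 and 0.68, with a mean of 0.73 ± 0.18 (SD, n = 4; limma adjusted p = 0.0121). Its relative Ddx21 had values in mice 3 and 4 only, -0.15 and 0.00.

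Ddx3x, an X-linked helicase that helps translation of structured mRNAs, had 0.44, 0.70, 0.65 and 0.30 as the average of 2 probes. Its mean was 0.52 ± 0.19 (SD, n = 4; limma adjusted p = 0.0239), but the probes disagreed, with means of 1.01 and 0.04. The first probe had 0.96, 1.23, 1.32 and 0.52 and the other -0.07, 0.16, -0.02 and 0.08. Ddx3x was lost without mouse 1, 2 or 3 (limma adjusted p 0.061 to 0.0775) and with mouse pairs as a random block (limma adjusted p = 0.0577).

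Several Ddx genes that did not pass differed widely between the mice. Ddx39b, a helicase that helps the U2 particle onto the transcript and brings export factors to mRNA, had 0.08, -0.01, -0.99 and -1.09. Its mean was the lowest of the family, -0.50 ± 0.62 (SD, n = 4; limma adjusted p = 0.197), with mice 3 and 4 far below the other mice. Its close relative Ddx39a, also an export helicase, had the opposite order, with -0.71 and -0.65 in mice 1 and 2, 0.02 in mouse 3 and no value in mouse 4 (limma adjusted p = 0.152). Ddx24, a nucleolar helicase, had -0.10, 0.13, 1.23 and 0.94 and a mean of 0.55 ± 0.64 (SD, n = 4; limma adjusted p = 0.171). Ddx1, which acts in RNA repair and transport, had -0.69, -0.51, 0.32 and 0.09. Mice 3 and 4 were thus high for Ddx17, Ddx24 and Ddx1 and low for Ddx39b. Closest to 0 were Ddx42, of the U2 particle, at 0.01 and Ddx19b, which acts at the nuclear pore, at 0.02. Ddx4, the germ cell helicase also called vasa, had values from -0.11 to -0.05 in 3 mice.

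**Figure D2:**
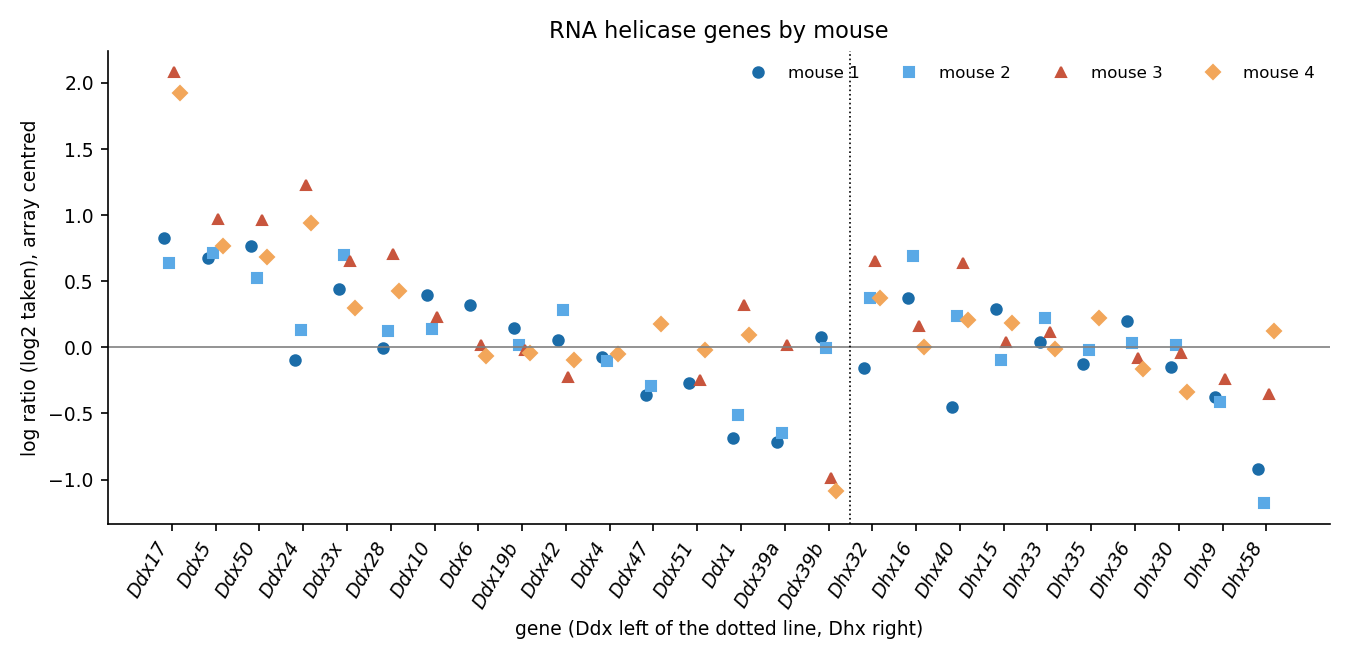
Log ratio of each tested Ddx and Dhx gene (y axis, log2 taken) in each mouse, with genes ordered by their mean within the 2 groups. The 4 values of Ddx5 lay between 0.68 and 0.97 and those of Ddx50 between 0.52 and 0.96. Ddx17, Ddx24 and Ddx39b differed between mice 1 and 2 and mice 3 and 4. Of the Dhx genes, Dhx58 spread most, between -1.18 and 0.13.

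None of the 10 tested Dhx genes passed (0 by limma, beside 12.5% of all genes). At an unadjusted limma p under 0.05 there were 3, beside 31.8% of all genes. The 10 means lay between -0.58 and 0.31. Dhx58, also called LGP2, an interferon-induced sensor related to RIG-I, had -0.92, -1.18, -0.35 and 0.13. Its mean was -0.58 ± 0.58 (SD, n = 4; limma adjusted p = 0.136), low in mice 1 and 2 and above 0 in mouse 4. Dhx9, also called RNA helicase A, which unwinds RNA in the nucleus, had -0.37, -0.41 and -0.24 in mice 1 to 3 and no value in mouse 4. Its mean of -0.34 ± 0.09 (SD, n = 3) missed the threshold (limma adjusted p = 0.0608), with a 95% interval of -0.56 to -0.13. The splicing helicase Dhx15, which takes the spliceosome apart, had a mean of 0.11 with an interval of -0.10 to 0.31. Dhx16, which acts before the first step of splicing, had 0.38, 0.69, 0.16 and 0.01 (limma adjusted p = 0.149). Dhx36, which unwinds G-quadruplexes, had a mean of 0.00 with an interval of -0.21 to 0.20. Dhx32 had the highest mean of the family, 0.31 (limma adjusted p = 0.179). Of the 10 genes, 2 had all their values on the same side of 0, beside 46.7% of all genes.

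The Sm ring holds 7 different proteins, and Snrpg encodes its G subunit. Snrpg had -0.65, -0.75, -0.77 and -0.67, with a mean of -0.71 ± 0.06 (SD, n = 4; limma adjusted p = 0.00707), a 1.63-fold difference. Its 4 values lay close together, and it passed whichever mouse was left out. Snrpd2, another ring subunit, had -0.73, -0.41, -0.52 and -0.03 and did not pass (mean -0.42, limma adjusted p = 0.0754). Snrpe, also of the ring, had -0.14, -0.21 and -0.11 in the 3 mice with a value (limma adjusted p = 0.246). The ring gene Snrpb had a mean of -0.08 and its tissue-restricted relative Snrpn of 0.02, each with n = 3 and limma adjusted p of 0.599 and 0.88. Snrpa, a protein of the U1 particle, had a mean of -0.09 with an interval of -0.25 to 0.07. Its relative Snrpb2, of the U2 particle, had the highest mean of the family, 0.33, from 0.37, 0.60 and 0.02 in mice 1 to 3 (limma adjusted p = 0.166). Of the 7 tested Snrp genes, 1 passed below 0 (14.3%, beside 4.81% of all genes) and 0 above (beside 7.69%). All values of 4 genes, Snrpg, Snrpd2, Snrpe and Snrpa, were below 0, beside 22.3% of all genes.

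Of 5 tested Lsm genes, Lsm14a passed above 0 and Lsm6 below it (20% each, beside 7.69% and 4.81% of all genes). Lsm14a, a component of cytoplasmic processing bodies that is not part of the Sm-like ring, had 0.95, 0.92, 1.20 and 1.31. Its mean was 1.09 ± 0.19 (SD, n = 4), a 2.13-fold difference, with a limma adjusted p of 0.00653, the smallest of the members. Lsm6, a ring subunit common to the U6 and decay complexes, had -0.79, -1.02, -1.12 and -0.22. Its mean was -0.79 ± 0.40 (SD, n = 4; limma adjusted p = 0.0332), nearest to 0 in mouse 4, and it was lost without mouse 1, 2 or 3 (limma adjusted p 0.0851 to 0.0949) and with mouse pairs as a random block (limma adjusted p = 0.0809). Lsm4 and Lsm3, ring subunits as well, were below 0 in each mouse without passing. Lsm4 had -0.93, -1.29, -0.14 and -0.18 (mean -0.64, limma adjusted p = 0.108), and Lsm3 had -0.57, -0.32, -0.19 and -0.08 (mean -0.29, limma adjusted p = 0.105). Lsm8, the subunit found only in the U6 ring, had 0.32, -0.15, 0.29 and 0.22 (mean 0.17, limma adjusted p = 0.297). Lsm2, another ring subunit, had values in mice 3 and 4 only, -0.01 and -0.16.

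**Figure D3:**
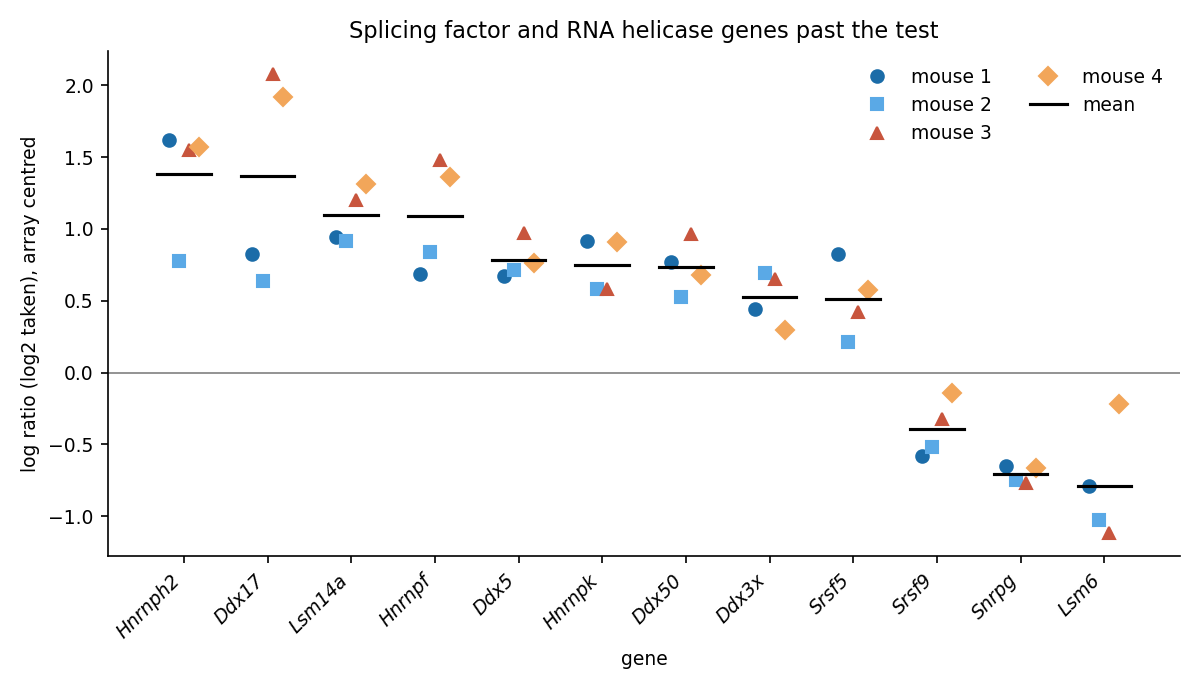
Log ratio (y axis, log2 taken) of the 12 genes past the test in each of the 4 mice, with the mean as a bar, ordered by the mean. All values of the first 9 genes are above 0 and all values of Srsf9, Snrpg and Lsm6 below it; Ddx17 had the widest spread and Snrpg the narrowest.

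The Sf3 genes lay closest to 0 of all families. None of the 7 tested passed (0 by limma, beside 12.5% of all genes). At an unadjusted limma p under 0.05 there were 2, beside 31.8% of all genes. The median size of the 7 mean log ratios was 0.06, beside 0.16 over all genes. Sf3a1, which binds both other Sf3a proteins, had -0.12, 0.00, -0.05 and -0.10, with a mean of -0.07 and a 95% interval of -0.22 to 0.09. Sf3b2 and Sf3b3, large subunits of Sf3b, had means of 0.05 and -0.02, with intervals of -0.12 to 0.22 and -0.23 to 0.19. Sf3a1 and Sf3b3 were averages of 2 probes on either side of 0. The probe means were -0.16 and 0.02 for Sf3a1 and -0.08 and 0.04 for Sf3b3. Sf3a3 and Sf3b6, the second of which contacts the branch point, were above 0 in each mouse with means of 0.25 each (limma adjusted p = 0.0679 and 0.074). Sf3b1, the largest subunit, had values in mice 2 and 4 only, -0.15 and -0.07.

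Set beside each other, the family medians of the mean log ratio were 0.20 for Srsf, 0.09 for Hnrnp, 0.06 for Ddx, 0.06 for Dhx, 0.05 for Sf3, -0.09 for Snrp and -0.29 for Lsm. Medians in the single mice lay between 0.05 and 0.22 for Srsf, between 0.03 and 0.24 for Hnrnp and between 0.07 and 0.28 for Ddx. They lay between -0.13 and 0.13 for Dhx, between 0.05 and 0.13 for Sf3, between -0.18 and -0.03 for Snrp and between -0.57 and -0.08 for Lsm. In the single mice, the medians of Srsf, Hnrnp, Ddx and Sf3 were thus above 0 and those of Snrp and Lsm below it, and that of Dhx crossed 0. The Ddx median of gene means turned to -0.01 without mouse 1 and was 0.11 without mouse 3 and without mouse 4. The Hnrnp median was 0.04 without mouse 3 and 0.17 without mouse 4, the Dhx median 0.02 without mouse 3 and the Sf3 median 0.03 without mouse 4. No test was made between families, since their genes are not replicates of each other. The Ddx median became 0.42 and the Snrp median -0.42 when only genes with 4 values were kept. That Snrp median rests on Snrpa, Snrpd2 and Snrpg alone and is the mean of Snrpd2, which did not pass. With genes measured on at least 2 arrays the Ddx median was -0.04 and the Lsm median -0.12. The Lsm median, which rests on 5 tested genes, was -0.20 without mouse 1 and -0.36 without mouse 4.

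**Figure D4:**
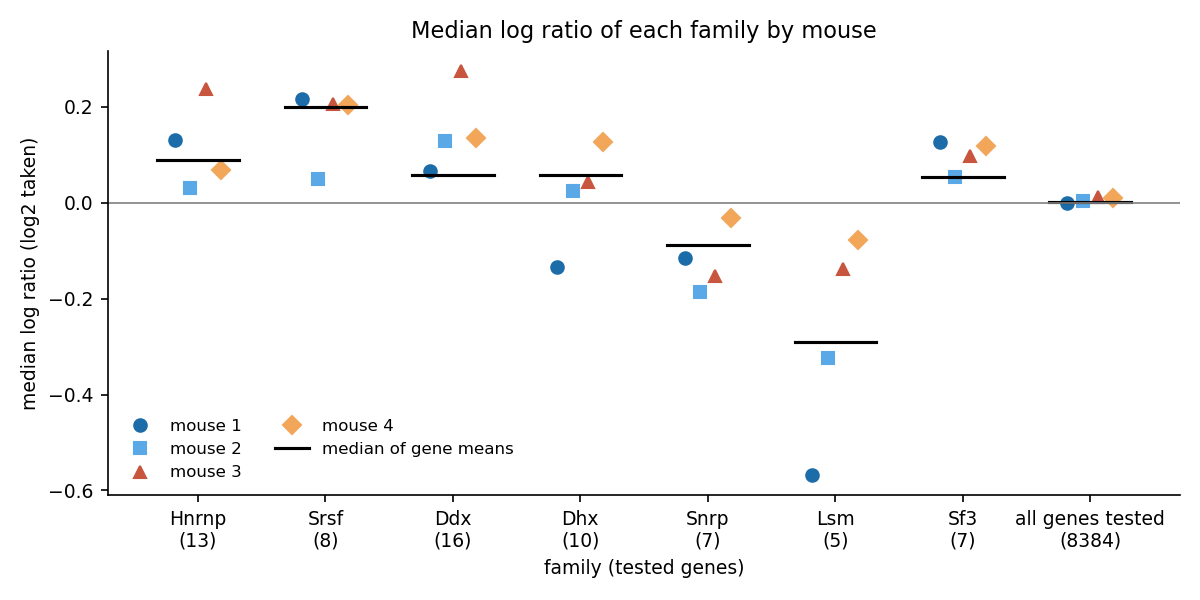
Median log ratio (y axis, log2 taken) of the tested genes of each family in each mouse, with the median of the gene means as a bar and the number of genes in parentheses. Snrp and Lsm lie below 0 in all 4 mice, Dhx on both sides of 0 and the other families above it, and the median of all genes is near 0.

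The 29 genes that were not tested had too few values: 21 had 1 or 2, and 8 had none. Their 33 values lay between -0.42 and 0.61. Beyond the families, a list of 126 other splicing genes had 103 on the platform and 78 tested, of which 11 passed above 0 and 1 below. That is 15.4% of the 78, beside 12.5% of all genes. Above 0 the share was 14.1%, beside 7.69%, and below 0 it was 1.28%, beside 4.81%. The median of the 78 was 0.16. Prpf18, which acts in the second step of splicing, had 0.65, 0.93, 0.85 and 0.69 (mean 0.78, limma adjusted p = 0.00747). Clk1, a kinase that phosphorylates Srsf proteins, had 1.73, 0.84, 1.04 and 1.10 (mean 1.18, limma adjusted p = 0.0125). Alyref, an export adaptor recruited by Ddx39b, had a mean of 0.69, Cdc40 of 0.64 and the U5 protein Snrnp40 of 0.58 (limma adjusted p 0.0152 to 0.0172). The gene below 0 was Rbm39, a splicing coactivator related to U2af2, with -1.18, -0.64, -1.34 and -1.06 (mean -1.05, limma adjusted p = 0.011). Of 8 tested RNA helicases outside the 7 families, 1 passed above 0 and 0 below. That is 12.5%, the same share as of all genes. It was Eif4a2, a translation initiation helicase, with 0.92, 0.83, 1.02 and 1.15 (mean 0.98, limma adjusted p = 0.00653). Its relatives Eif4a1 and Eif4a3 had means of 0.48 and 0.52 and did not pass (limma adjusted p = 0.118 and 0.0836).

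Some marker genes of other tissues and cells also differed between treated lungs and the pool. Over all genes tested, 7.69% passed above 0, 4.81% passed below 0 and 31.8% had an unadjusted limma p under 0.05. Of the 7 tested markers of lung epithelium, Sftpa1 passed above 0 (mean 1.28, limma adjusted p = 0.00653) and Aqp5, a water channel gene, below it (mean -0.34, limma adjusted p = 0.0423). Ager had a mean of 1.16 and did not pass (limma adjusted p = 0.0521). The medians of these 7 markers were 0.16, -0.19, 0.37 and 0.36 in mice 1 to 4. Of 6 tested markers of striated muscle, 4 passed below 0 and 0 above, with medians of -2.85, -1.33, -1.81 and -1.70 in mice 1 to 4. All 4 tested fat markers passed below 0, with medians from -1.50 to -0.27. Of 4 tested endothelial markers 3 passed above 0, with medians from 0.80 to 1.16. Of 3 tested neutrophil markers 2 passed below 0, S100a8 and S100a9 (means -2.28 and -2.08). Mpo, the third, did not pass (mean -0.16, limma adjusted p = 0.385). The medians of the 3, from -2.99 to -1.50, were the values of S100a9 in each mouse. Of 3 tested macrophage markers, Mrc1 passed above 0, Cd68 lay between -0.25 and 0.21, and Marco had -1.23, -1.46, 0.33 and 0.41 in mice 1 to 4. Markers of dividing cells (0 of 5 by limma, 1 at an unadjusted p under 0.05) had medians of -0.71, -0.57, 0.01 and -0.04. The list was split, with 2 means above 0 and 3 below. In mice 1 to 4, Pcna had -0.26, -0.57, 1.68 and 1.12, and Mki67 had -0.98, -0.79, -0.25 and -0.10. Lymphocyte markers (0 of 4 by limma, 1 at an unadjusted p under 0.05) had medians from -0.02 to 0.15. The part of these cells and tissues in the values of the splicing and helicase genes was not tested.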

How the data were processed

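Per the labels, lung RNA of 4 bleomycin-treated A/J mice was compared with a control pool on 2-colour arrays. The authors deposited 1 log ratio per spot and array, taken here to be log2; how the arrays were dyed, scanned, corrected and normalized is not given. Of 17280 spots, 14722 carried 1 gene symbol in the platform annotation, 1 carried several and 2557 were not listed. Gene IDs of 14445 probes matched RefSeq (GRCm38.p6), which changed 0 symbols. Each array was centred on its median, probes of a symbol were averaged, and genes with values on at least 3 arrays were kept (8384). Among the members, 11 tested genes had values from several probes, and for 8 of these the probe means lay on either side of 0. The mean was tested against 0 with limma 3.58.1 (R 4.3.3, lmFit, eBayes, two-sided) and adjusted by Benjamini-Hochberg across the 8384 genes. A prior check on simulated data used noise that was independent between arrays. It could not show what the likeness of mice 1 and 2, and of mice 3 and 4, does to the test. The labels number the mice, and each was taken as 1 replicate. The p-values set the mean log ratio against the spread between these 4 samples, with variances moderated over all genes. A departure of the pool from other controls would be in every ratio and was not tested.

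Members and lists were chosen with earlier results of these data known. Named are the members past the test, the highest and lowest of each family and 30 set genes (21 tested); other genes were named for their role or values. Of other splicing genes and helicases, up to 6 past the test with the smallest p are named. Promoter windows take the first start listed. Protein sequences were not used here. Alternatives were no centring, a common spread of the arrays, stricter and looser filters, 1 probe per gene, robust eBayes, mouse pairs as a random block and each mouse left out.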

Additional observations from a re-analysis of the deposited data

Results flagged for a closer look

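Among 36 named genes and medians with 4 values, 4 had a mouse far from the others by Dixon's criterion, which chance meets in about 1 of 20 such groups. Hnrnph2 had 0.78 in mouse 2, against 1.55 to 1.62 in the other mice. Srsf3 had 0.049 in mouse 2, against 0.25 to 0.28, and the Srsf family median was 0.051 in mouse 2, against 0.21 to 0.22. Srsf2 had 0.16 in mouse 1, against -0.02 to 0.01.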

How the results depend on the processing

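With mouse pairs 1 and 2, and 3 and 4, as a random block (correlation 0.304), 8 members passed against 12, and 1 against 3 below 0; Srsf5, Srsf9, Ddx3x and Lsm6 were lost (limma adjusted p 0.0577 to 0.0963). With a mouse left out, 7 to 9 members passed, 6 to 8 above and 1 to 2 below 0. Hnrnph2, Hnrnpk, Ddx5, Ddx50, Snrpg and Lsm14a passed in all 4 such fits. Srsf9 was also lost without centring, with genes on at least 2 arrays and with robust eBayes (limma adjusted p 0.0509 to 0.057). The median of all members was 0.089 with values on all 4 arrays, -0.003 with at least 2 and 0.057 with 1 probe per gene. With 4 values the Ddx median was 0.42 and the Snrp median, resting on Snrpa, Snrpd2 and Snrpg alone, was -0.42. With at least 2 values the Ddx median was -0.037 and the Sf3 median 0.018. Fewer or more genes were tested in these fits. With a mouse left out, the Ddx median was -0.013 to 0.109.

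Among the 32 named members, the sign of the mean turned for 4 that did not pass: Srsf2 (-0.09 with 1 probe, -0.008 to 0.051 with a mouse left out), Dhx36 (0.01 without centring, -0.071 to 0.051 with a mouse left out), Snrpb (-0.13 to 0.002) and Snrpn (-0.056 to 0.066), likewise with a mouse left out. No paired analysis was possible because the arrays form a single group. Without spot intensities, how far a signal stood over background was not analysed here.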
